A study of Cavia porcellus with 18 samples.

Results

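CG sites that lie a short way into the transcribed side of genes were compared between 2 bisulfite assays in the hippocampus of the guinea pig (Cavia porcellus). The sites are those whose nearest listed transcription start site lies more than 1000 and up to 10000 bases away, with the site on the downstream side, so that the choice used position only and no measured level. They number 34781 of the 167387 distinct sites (20.8%) that the authors' site table lists. They fall in 11030 H3K4me1 peaks on 262 scaffolds and belong, by nearest start, to 10194 transcripts of 10116 genes. They are called downstream sites here, and distance ranges such as 1000 to 2000 bases leave out their near limit. All 167387 listed sites, downstream or not, lie inside an H3K4me1 peak. The levels and comparisons below therefore describe CG sites in such peaks only. The downstream window can hold exons or introns, or sequence past the end of a short gene, and an annotation of the files' build to separate these was not used here.

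All libraries came from 3 wild type male guinea pigs of 12 weeks, and no treatment group was included. Sonicated, formaldehyde-fixed chromatin was precipitated with an antibody to H3K4me1, a histone mark, and either sequenced directly (3 libraries) or treated with bisulfite first (ChIP-bisulfite, 3 libraries). An antibody to RNA polymerase II phosphorylated on serine 5 (Pol II PS5) gave a further 3 libraries. Reduced representation bisulfite sequencing (RRBS), which reads DNA near the cutting sites of the enzymes MspI and ApeKI without an antibody, had 6 libraries, read at 50 and at 100 bases. Bisulfite converts unmethylated cytosine, so the share of unconverted reads gives the methylation level. Whole hippocampus mixes neurons and glia, and differences between cell types and within them cannot be told apart in these values. The deposited values pool the 3 animals into 1 value per assay. No spread between animals could be computed, and the 95% intervals below cover differences between scaffolds only.

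In mammalian genomes most CG sites are methylated, whereas CG-rich sequence around start sites usually is not. H3K4me1 marks enhancers and the flanks of promoters, where methylation is often intermediate, and transcribed gene bodies commonly carry methylated CG sites. Pol II PS5 is the form of the polymerase found at initiation and early in transcription, and it is enriched close to active start sites.

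The downstream sites had a mean methylation level of 56.9% in RRBS (SE 0.548, 95% interval 55.9 to 58.0) and of 48.5% in ChIP-bisulfite (SE 0.505, interval 47.5 to 49.5). In ChIP-bisulfite the same sites were thus lower by a mean of 8.43 points, with an interval for ChIP-bisulfite minus RRBS of -8.90 to -7.96. Over all listed sites the mean difference was -8.83 points. It was -6.87 points at 1000 to 10000 bases upstream, -3.70 points within 1000 bases of a start and -11.6 points at 10000 to 100000 bases downstream. ChIP-bisulfite was the lower value at 42.6% of the downstream sites and the higher at 32.9%, and the same whole percent was listed in both at 24.4%. The RRBS level of a site rested on a median of 17 reads, with a range of 10 to 3193. The ChIP-bisulfite depth of a single site was not given. Its proxy, the ChIP-bisulfite reads of the surrounding peak divided by its measured C positions, had a median of 16.9 over 34082 downstream sites. Over whole peaks of the averages table that hold downstream sites, the ChIP-bisulfite average was 48.2% ± 26.1 (SD over 11971 peaks).

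Single sites took very different levels around these means. In RRBS, 23.4% of the downstream sites were low (at most 20%), 36.9% were high (at least 80%) and 39.6% lay between. In ChIP-bisulfite, 43.3% were low, 40.4% were high and only 16.3% lay between, so that the lower mean came with more sites at both ends. In ChIP-bisulfite 64.5% of the downstream sites had a level of exactly 0 or 100%, beside 34.7% in RRBS. This share moved with depth. It fell from 75.7% to 54.9% from the lowest to the highest quintile of the ChIP-bisulfite depth proxy, and in RRBS from 46.0% at 10 to 14 reads to 17.7% at 30 reads or more. The part that depth plays in the difference between the assays was not tested.

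**Figure D1:**
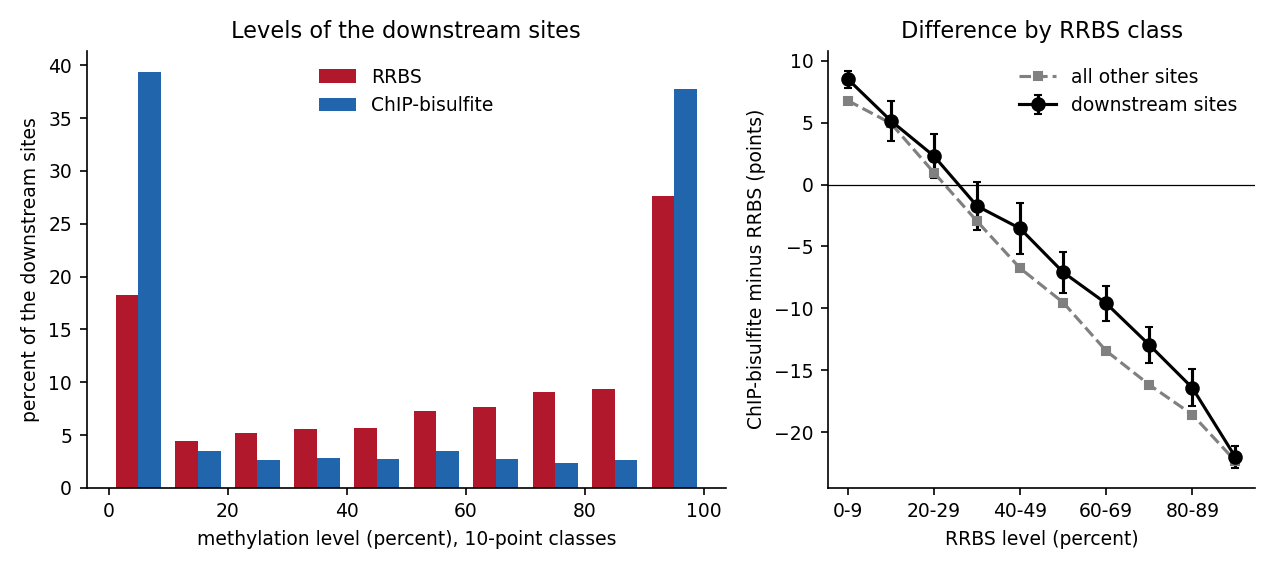
Left, the percent of the 34781 downstream sites in each 10-point class of methylation level, for RRBS and ChIP-bisulfite. Right, the mean difference ChIP-bisulfite minus RRBS in points for each RRBS class, for the downstream sites (bars, 95% interval over scaffolds) and for all other sites; it ran from 8.53 points in the lowest class to -22.0 points in the highest for the downstream sites.

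Most sites at the extremes of RRBS lay on the same side in ChIP-bisulfite, while fewer of the sites low in ChIP-bisulfite were low in RRBS. Sites low in both made up 19.4% of the downstream sites (interval 18.3 to 20.6) and sites high in both 24.6% (23.7 to 25.4). RRBS put 8140 sites in the low class, and ChIP-bisulfite placed 83.1% of these in its low class and 6.90% in its high class. RRBS put 12851 in the high class, and for these ChIP-bisulfite gave 66.5% high and 18.3% low. In the other direction, 44.9% of the 15059 sites in the low class of ChIP-bisulfite were low in RRBS and 15.7% were high, and 60.8% of the 14057 in its high class were high in RRBS. The 13790 sites between these limits in RRBS mostly left the middle in ChIP-bisulfite, where 43.1% were low, 35.9% high and 21.1% between. Across the 34781 sites, Spearman's rho between the assays was 0.572, and across the means of 4405 peaks with at least 3 downstream sites it was 0.699. Neighbouring sites share reads and peaks, so both values are descriptions.

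The difference between the assays depended on the RRBS level. ChIP-bisulfite exceeded RRBS by 8.53 points (interval 7.84 to 9.22) where RRBS was 0 to 9%, crossed 0 between the classes 20 to 29% and 30 to 39%, and was -22.0 points (-22.9 to -21.1) where RRBS was 90 to 100%. A site at the end of the RRBS scale can differ in only 1 direction. In the middle classes the difference was smaller at the downstream sites than at all sites outside the window. An equal RRBS class does not ensure an equal underlying level, so no conclusion is drawn from this. At an RRBS level of 60 to 69% the difference was -9.60 points (-11.0 to -8.20) against -13.4 points.

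The authors' list of differentially methylated sites equals a rule of at most 30% in 1 assay and at least 70% in the other at every one of the 167387 sites, and it carries no test. It held 3601 downstream sites as lower in ChIP-bisulfite, which is 10.4% of them, beside 10.2% of all sites. It held 1037 (2.98%) as higher, beside 2.93% of all sites. Both shares lie near the background. ChIP-bisulfite was lower by at least 40 points at 20.6% of the downstream sites, beside 20.4% of all sites, and higher by as much at 8.92%, beside 8.53%. Among downstream sites with an RRBS level of at least 70%, 22.5% (interval 21.8 to 23.3) were listed as lower, beside 23.8% of all such sites. Among those with an RRBS level of at most 30%, 10.4% (9.72 to 11.1) were listed as higher, beside 9.02% of all such sites. The listed lower sites averaged 88% in RRBS and 6.0% in ChIP-bisulfite and were spread over 2671 peaks. The listed higher sites averaged 14.4% and 93.1% and were spread over 923 peaks. Listed sites lay near others of their kind. Of 1956 listed lower sites with another downstream site within 100 bases, the nearest such site was also listed lower for 32.6%, beside 9.46% for all downstream sites with a neighbour that close. For listed higher sites the nearest was also listed higher for 14.6%, beside 2.67%. Sites this close can sit on the same reads. The list's rule also fixes the RRBS level of a listed site, and the neighbours were not matched on RRBS. By RRBS level alone, 22.5% of downstream sites at 70% or more were listed lower, and 10.4% at 30% or less were listed higher.

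Methylation changed with distance mainly in the first bases of the window, in both assays. In RRBS the mean was 52.4% (interval 50.7 to 54.2) at 1000 to 2000 bases, 57.7% (56.0 to 59.3) at 2000 to 3000 bases, and between 57.5% and 58.8% in each later 1000-base bin. In ChIP-bisulfite it was 47.4% (45.4 to 49.3) in the first bin, 49.6% in the second and 47.8% to 49.1% after that. The last bin exceeded the first by 6.01 points in RRBS (interval 3.28 to 8.73), and by 0.41 points in ChIP-bisulfite, where the interval of -2.45 to 3.27 includes 0. The difference between the assays therefore widened from -5.08 points in the first bin to -10.7 points in the last, a change of -5.60 points (-7.53 to -3.67). In 200-base steps the RRBS mean was 47.3% at 1000 to 1200 bases, 48.8% at 1200 to 1400 and 55.8% at 1400 to 1600, after which it stayed between 56.4% and 59.8% up to 3000 bases. ChIP-bisulfite averaged 42.8%, 44.9% and 51.0% in the same steps, and lay between 48.4% and 52.0% in the later steps up to 3000 bases. The rise by distance depended on which sites were counted. Counting through any listed transcript adds sites that lie within 1000 bases of their nearest start or upstream of it. The RRBS difference between last and first bin was then 3.12 points with an interval that includes 0.

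At the near limit, sites at 900 to 1000 bases, just outside, averaged 41.7% in RRBS and 38.4% in ChIP-bisulfite, and sites at 1000 to 1100 bases averaged 44.4% and 41.3%. At the far limit, sites at 9900 to 10000 bases averaged 59.3% and 46.4%, and sites just beyond, at 10000 to 10100 bases, averaged 57.2% and 47.0%.

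**Figure D2:**
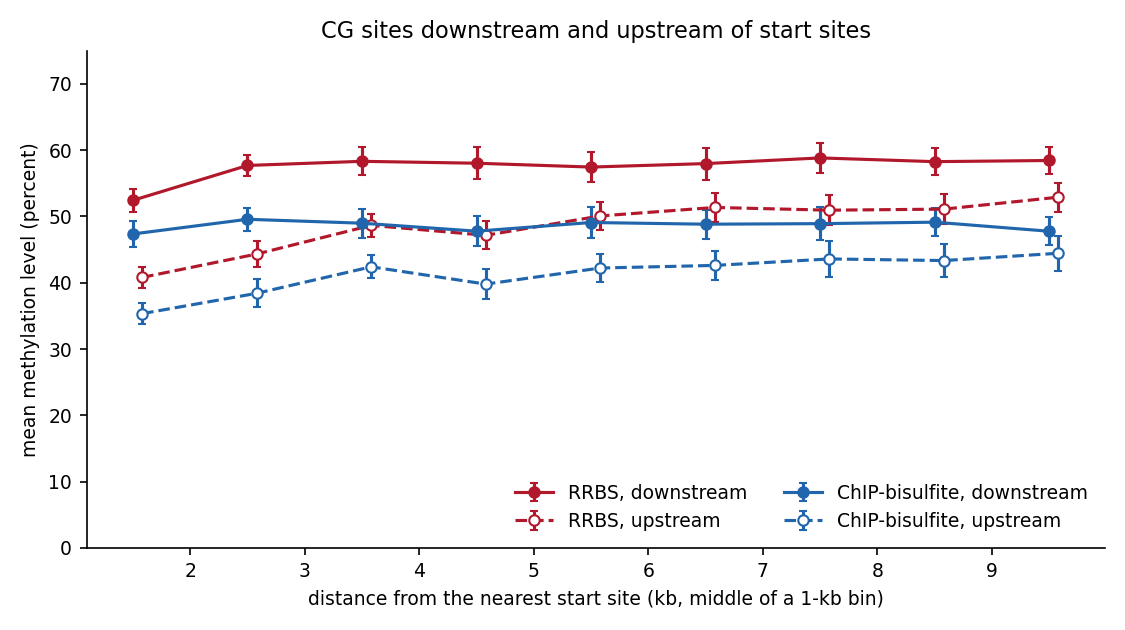
Mean methylation level in percent by distance from the nearest start site, in 1000-base bins, for downstream sites (filled points) and for sites at the same distance upstream (open points), with 95% intervals over scaffolds. The downstream RRBS mean rose from 52.4% to 57.7% between the first bins and then stayed level, and both assays lay above their upstream values.

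The downstream sites were more methylated than sites at equal distance upstream. The 35206 sites 1000 to 10000 bases upstream averaged 47.2% in RRBS and 40.3% in ChIP-bisulfite, so that the downstream sites were higher by 9.75 points (interval 8.60 to 10.9) and 8.20 points (7.05 to 9.36). When a site counted through any listed transcript, these differences were 5.11 points (3.08 to 7.13) and 4.35 points (2.31 to 6.38). The RRBS difference was 11.6 points at 1000 to 2000 bases, reached 13.4 points at 2000 to 3000 bases and was 5.53 points in the last bin, and its interval lay above 0 in all 9 bins. Upstream sites lay in slightly denser sequence. Measured as the C positions per kb that the authors' averages table lists for the peak, with no sequence context given, the median density was 37.6 upstream and 34.5 downstream. Within bins of distance and quintiles of this density the downstream sites remained higher by 8.10 points in RRBS (7.04 to 9.16) and 6.79 points in ChIP-bisulfite (5.68 to 7.90). The difference between the assays was larger downstream by 1.55 points. At equal 10-point RRBS class ChIP-bisulfite minus RRBS was instead 1.23 points higher downstream than upstream (0.578 to 1.88). RRBS is part of this difference and is read at limited depth, so an equal RRBS class does not ensure an equal underlying level. No conclusion is drawn from the change of sign.

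Sites within 1000 bases of a start site averaged 28.2% in RRBS and 24.5% in ChIP-bisulfite, 28.7 points (27.4 to 30.02) and 24.0 points (22.5 to 25.4) below the downstream sites. Sites 10000 to 100000 bases downstream averaged 63.1% and 51.5%. The downstream sites of the 1000 to 10000 window minus these was -6.12 points in RRBS (interval -7.11 to -5.12) and -2.98 points in ChIP-bisulfite (-4.04 to -1.92). With any listed transcript they were -10.3 and -6.51 points, and with 1 mean per H3K4me1 peak the ChIP-bisulfite difference was -1.78 points. Within quintiles of C-position density the RRBS difference was -3.35 points (-4.44 to -2.26), whereas the ChIP-bisulfite difference was -0.396 points with an interval of -1.52 to 0.724.

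The density of listed C positions went with the level more than distance did. From the lowest quintile of the downstream sites (2.56 to 19.3 positions per kb) to the highest (61.6 to 240.7 positions per kb), the RRBS mean was 66.1%, 62.9%, 61.1%, 57.2% and 37.5%. The ChIP-bisulfite mean was 57.6%, 52.5%, 51.1%, 48.7% and 32.6%. Highest minus lowest quintile was -28.6 points (-32.4 to -24.7) and -25.0 points (-28.8 to -21.3), and most of that drop lay in the last step. The position inside the H3K4me1 peak went with the level as well. Downstream sites at most 250 bases from the nearer peak edge averaged 77.5% in RRBS and 68.3% in ChIP-bisulfite, while sites 1000 to 2000 bases inside averaged 53.1% and 44.3%, a difference of 24.3 points (22.0 to 26.7) and 24.0 points (21.0 to 26.9). Sites in peaks of at most 2000 bases averaged 68.1% and 56.2%. These narrow peaks held 1650 of the downstream sites.

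Whether levels differed by the H3K4me1 peak extending back over the start site depended on which sites were counted. By nearest start, the peak did so for 17179 of the downstream sites (49.4%), which averaged 56.2% in RRBS and 48.7% in ChIP-bisulfite, against 57.6% and 48.4% for the others, a difference of -1.37 points (-3.05 to 0.313) and 0.288 points (-1.42 to 1.99). Within 1000-base bins of distance the differences were 0.806 points (-0.964 to 2.58) and 1.29 points (-0.640 to 3.23), and all 4 intervals include 0. When a site counted through any listed transcript, the pooled differences were -6.87 points in RRBS (-9.09 to -4.66) and -4.55 points in ChIP-bisulfite (-6.78 to -2.33). In that setting the peak was still judged against the nearest start. The added sites lay within 1000 bases of that start or upstream of it. The sign also turned under other settings, given with the processing alternatives.

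Downstream sites under Pol II PS5 were less methylated than the rest. Of the 34781 sites, 509 (1.46%) lay inside 237 Pol II PS5 peaks, beside 2.22% of all sites. They averaged 36.6% in RRBS (interval 28.9 to 44.3) and 34.0% in ChIP-bisulfite (25.1 to 42.9), against 57.2% and 48.7% for sites outside. The difference was -20.7 points (-27.9 to -13.4) in RRBS and -14.7 points (-23.2 to -6.23) in ChIP-bisulfite. The ChIP-bisulfite difference was -10.7 points with at least 20 RRBS reads, where its interval included 0, -25.6 points with any listed transcript and -24.0 points with Pol II PS5 peaks above their median score. Within bins of distance and quintiles of C-position density the differences were -17.4 points (-22.4 to -12.5) and -11.8 points (-17.5 to -6.14). Density stood beside this result, with a median of 43.4 positions per kb inside and 34.4 outside.

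The same difference was present inside single H3K4me1 peaks. In 161 peaks that held downstream sites both inside (381 sites) and outside (1069 sites) a Pol II PS5 peak, inside minus outside was a mean of -20.03 points in RRBS (interval -26.1 to -13.9) and -14.2 points in ChIP-bisulfite (-22.0 to -6.44). In RRBS the inside mean was lower in 110 of these peaks, higher in 46 and equal in 5. In ChIP-bisulfite it was lower in 94, higher in 54 and equal in 13. The dip was narrow. Downstream sites 1 to 500 bases from a Pol II PS5 peak averaged 42.3% and 35.8%, sites 500 to 2000 bases away averaged 56.6% and 51.4%, and sites more than 20000 bases away averaged 56.5% and 46.7%.

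**Figure D3:**
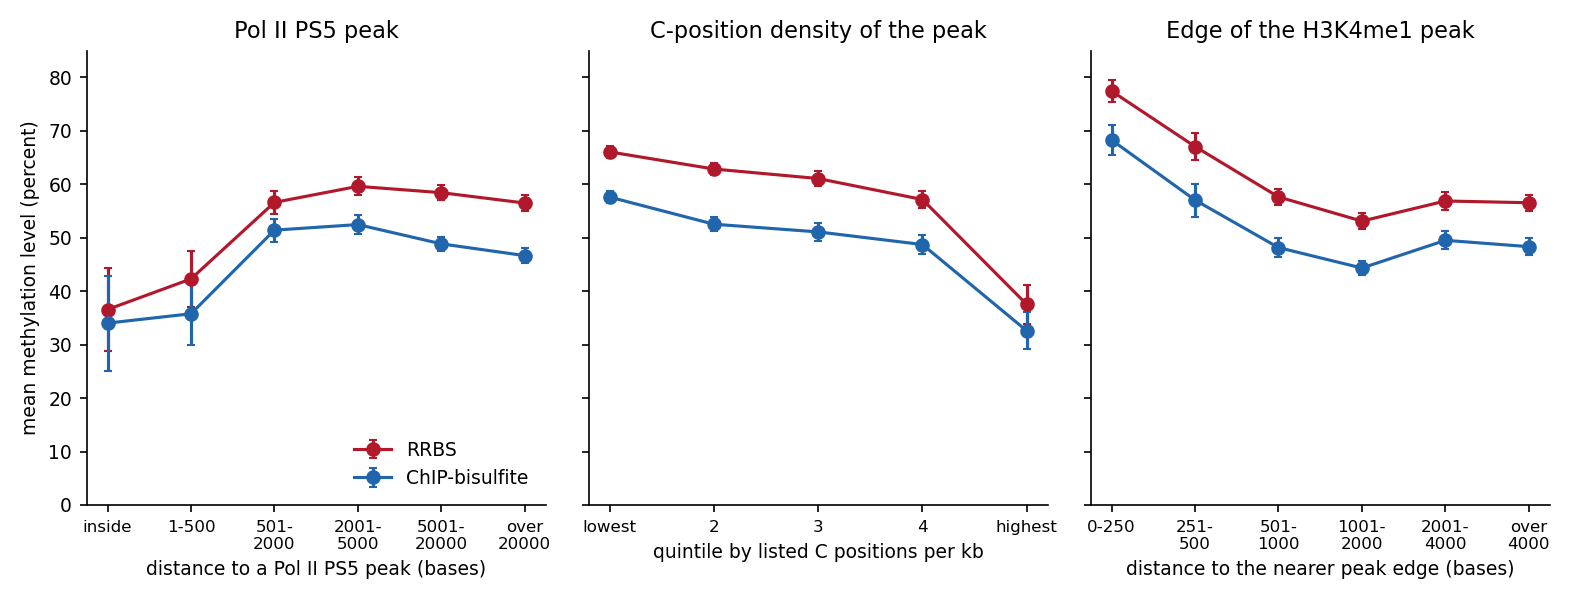
Mean methylation level in percent of the downstream sites, with 95% intervals over scaffolds, by distance to the nearest Pol II PS5 peak, by quintile of the listed C positions per kb of the peak, and by distance to the nearer edge of the H3K4me1 peak. Levels were lowest inside Pol II PS5 peaks (36.6% in RRBS) and in the densest quintile (37.5%), and highest within 250 bases of a peak edge (77.5%).

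Over the whole window 1.46% of the downstream and 2.77% of the upstream sites lay inside a Pol II PS5 peak, a difference of -1.31 percentage points (-2.19 to -0.430). In 7 of the 9 distance bins the interval of the difference included 0. At 1000 to 2000 bases, 0.732% of the downstream sites (52 of 7104) but 3.45% of the upstream sites (265 of 7692) lay inside a Pol II PS5 peak, a difference of -2.71 percentage points (-4.14 to -1.29). At 6000 to 7000 bases the shares were 2.23% and 2.25%. Upstream sites inside Pol II PS5 peaks were lower still, at 20.3% in RRBS and 16.6% in ChIP-bisulfite. Within distance bins, inside minus outside was -27.1 points upstream and -21.3 points downstream in RRBS, and these did not separate (difference 5.80 points, interval -2.21 to 13.8). In ChIP-bisulfite they were -24.0 and -14.9 points, which differed by 9.11 points (0.432 to 17.8). Without scaffold 13, which left 464 of the 509 downstream sites inside Pol II PS5 peaks, that difference was 5.54 points (-2.001 to 13.1), and without the H3K4me1 peak with the most downstream sites it was 5.49 points (-1.93 to 12.9), so the 2 sides were then not separated in either assay.

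The authors' Pol II PS5 score belongs to the transcript rather than the site, and it went the other way. A site was taken as scored when any transcript listed for it had a score above 0. Scored sites were 19807 of the downstream sites (56.9%, beside 66.1% of all sites), and averaged 58.4% in RRBS and 50.5% in ChIP-bisulfite. The 14974 sites without a score averaged 55.0% and 45.9%. With minus without was 3.40 points (1.57 to 5.23) and 4.53 points (2.76 to 6.31), and within distance bins and quintiles of density 2.70 points (1.01 to 4.40) and 3.67 points (2.03 to 5.32). By the score of the nearest transcript alone, with minus without was 4.27 points (2.76 to 5.78) and 5.56 points (4.10 to 7.02). The call depended on which sites were counted. With any listed transcript, which adds sites within 1000 bases of their nearest start or upstream of it, the differences were -0.335 and 0.806 points. Both intervals include 0. Upstream, the score difference within distance bins was 2.12 points in RRBS and 1.42 points in ChIP-bisulfite. The downstream ChIP-bisulfite difference of 4.90 points exceeded the latter by 3.47 points (1.101 to 5.84), while in RRBS the 2 sides were not separated (1.91 points, -0.471 to 4.30). A share of 66.4% of the downstream sites at 1000 to 2000 bases had a listed transcript with a score, against 56.2% upstream.

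The highest scores rested partly on 1 peak. The 623 downstream sites with a score over 10 averaged 64.1% in RRBS (interval 53.5 to 74.6) and 57.6% in ChIP-bisulfite (46.7 to 68.4). Of these, 213 lay in a single H3K4me1 peak on scaffold 13 at bases 48344145 to 48360429, which is listed with 2 genes and a score of 20.88. Its sites averaged 78.5% and 72.1%, and their RRBS depth was a median of 58 and up to 841 reads. Without this peak the other 410 sites averaged 56.6% (51.1 to 62.1) and 50.02% (43.5 to 56.5). The gene with the most downstream sites of all, ENSCPOG00000029475, is 1 of these 2 genes and had 178 sites, with an RRBS mean of 78.5% ± 18.7 and a ChIP-bisulfite mean of 73.0% ± 31.4 (SD over sites).

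The averages table lists 98182 of its 99978 peaks in both an Active and an Inactive entry, each with a distance to a start. The sources used here do not define these names. For this comparison a peak was assigned to the name with the smaller distance, which is not a label given by the authors. Downstream sites in peaks nearer to an Active start numbered 4197, of which 4177 also had a score, and averaged 61.4% in RRBS and 55.4% in ChIP-bisulfite. The 30220 sites nearer to an Inactive start averaged 56.3% and 47.5%.

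Downstream levels were next set beside the start site of the same transcript. A transcript was classed by the RRBS mean of at least 2 sites within 1000 bases of its start, sites that are not among the downstream sites. The 1329 transcripts with a low start (at most 20%) had start sites at 4.93% on average, yet their 5110 downstream sites averaged 49.9% in RRBS (interval 47.6 to 52.2) and 43.1% in ChIP-bisulfite (40.8 to 45.4). The 301 transcripts with a high start (at least 80%) had start sites at 90.5% and 1097 downstream sites at 62.8% (59.3 to 66.2) and 52.7% (48.8 to 56.6). Downstream, low minus high was -12.8 points in RRBS (interval -17.1 to -8.57) and -9.60 points in ChIP-bisulfite (-14.02 to -5.19). The gap at the start itself is set by the class limits of 20% and 80%, so it is no measure to hold these against. The 957 transcripts between had downstream sites at 59.5% and 50.4%.

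The start classes lay farthest apart nearest to the start. At 1000 to 1500 bases, downstream sites averaged 39.4% in RRBS (35.2 to 43.7) for low starts, 59.3% (54.9 to 63.6) for those between and 69.8% (62.8 to 76.7) for high starts. At 5000 to 10000 bases the means were 55.1%, 59.2% and 61.7%. Among transcripts with at least 2 downstream sites, the downstream mean lay above the start in 874 of 937 with a low start, with a median rise of 52.9 points, and in 26 of 208 with a high start, with a median change of -23.4 points. The classes fix much of these directions, since a low start has more room above it. Over the 1834 transcripts, Spearman's rho between the start and the downstream RRBS mean was 0.123, and 0.0702 in ChIP-bisulfite. Of the transcripts with a low start, 160 (17.1% of 937) had a downstream mean of at most 20%, and 203 (21.7%) had one of at least 80%. For starts between, the shares were 9.14% and 26.6% of 689, and for high starts 6.73% and 31.25% of 208. The share of high downstream means was thus lowest for low starts.

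**Figure D4:**
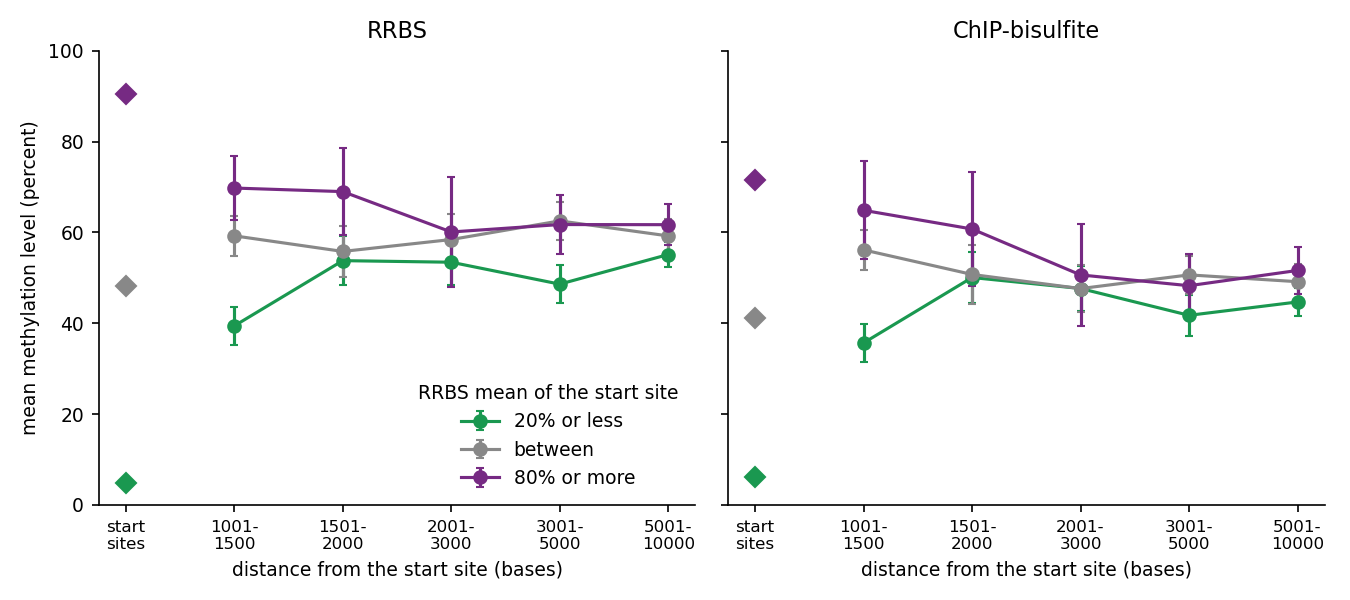
Mean methylation level in percent of downstream sites by distance, for transcripts whose start-site RRBS mean was at most 20%, between, or at least 80% (diamonds, mean of the start sites themselves; bars, 95% intervals over scaffolds). In RRBS the classes lay at 39.4%, 59.3% and 69.8% at 1000 to 1500 bases and at 55.1%, 59.2% and 61.7% at 5000 to 10000 bases.

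Downstream sites of transcripts with a low start were higher where any transcript listed for the site had a Pol II PS5 score. The scored transcript need not be the nearest one that set the start class, so a transcript can have sites on both sides. With a score, 3382 such sites averaged 54.2% in RRBS (51.7 to 56.7) and 47.7% in ChIP-bisulfite (45.1 to 50.3). Without a score, 1728 sites averaged 41.6% (37.1 to 46.1) and 34.1% (30.1 to 38.2). Within distance bins the difference was 13.5 points (8.31 to 18.7) and 13.99 points (9.33 to 18.7). For the remaining classes together it was 1.40 points (-2.18 to 4.98) and 3.55 points (-0.805 to 7.90), and the difference between these differences was 12.1 points in RRBS (5.92 to 18.3) and 10.4 points in ChIP-bisulfite (4.52 to 16.4). C-position density moved with the score at these sites, at a median of 44.5 positions per kb with and 64.0 without. Within quintiles of density as well as bins of distance, the difference for low starts was 5.06 points (1.57 to 8.56) and 6.60 points (2.99 to 10.2), and for the remaining classes 1.87 points (-1.76 to 5.50) and 3.53 points (-0.685 to 7.74). The difference between these differences was then 3.20 points in RRBS (-1.31 to 7.70) and 3.08 points in ChIP-bisulfite (-1.56 to 7.72), so the start classes were not separated at equal density.

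Levels also varied inside single peaks. In the 4405 H3K4me1 peaks with at least 3 downstream sites, the pooled within-peak SD was 28.6 points in RRBS and 37.4 points in ChIP-bisulfite, against 36.8 and 43.9 points over all their sites. Such a peak held both a low and a high site in 32.1% of cases in RRBS and in 59.0% in ChIP-bisulfite. Sites 1 base apart, taken as the same CG on the 2 strands, gave 2224 pairs. They differed by a mean of 17.5 points in RRBS and 26.3 points in ChIP-bisulfite, and by 40 points or more in 11.9% and 29.8% of pairs. Pairs in ChIP-bisulfite thus disagreed by that much more often than pairs in RRBS.

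The extremes were taken from the 943 peaks with at least 8 downstream sites, chosen by their values and given with no test. The median of these peaks was 52.0% in RRBS and 42.6% in ChIP-bisulfite, and 659 of them (69.9%) were lower in ChIP-bisulfite. In 53 peaks the RRBS mean was at most 5%, and in 63 it was at least 80%. Coordinates are those of the files, whose genome build is not given in the sources used here.

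The lowest peaks were unmethylated in RRBS at every downstream site they held. A peak on scaffold 86, bases 6629495 to 6632201, held 16 sites between 7570 and 8419 bases from the start. All 16 were at 0% in RRBS over 252 reads, summed over sites. As separate reads these would allow a share of up to 1.19%. In ChIP-bisulfite 15 of the sites were at 0% and 1 was at 38%. A peak on scaffold 17, bases 17279572 to 17285970, held 16 sites between 1577 and 2690 bases, at 0% in RRBS over 321 reads (up to 0.935%), and in ChIP-bisulfite all were at 0% except 1 at 8%. Both peaks were dense, with 85.7 and 152.1 listed C positions per kb. Reads over neighbouring sites are not independent molecules, and a read that covers several sites was counted at each of them. The limits of 1.19% and 0.935% are therefore too low.

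The highest peaks were methylated in RRBS throughout. On scaffold 75, bases 2829651 to 2838071, 8 sites ran from 81% to 100% in RRBS and from 90% to 100% in ChIP-bisulfite. On scaffold 51, bases 10421650 to 10429590, 10 sites ran from 77% to 100% in RRBS with a mean of 97.1% ± 7.31 (SD over sites). In ChIP-bisulfite 8 of these 10 were at 100%, and the others were at 7% and 0%.

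The peaks with the largest differences were of different kinds. The most negative, near gene ENSCPOG00000010652 on scaffold 119 (bases 782278 to 784798), had 8 sites at 80% to 100% in RRBS (mean 93.4% ± 8.53, SD over sites). In ChIP-bisulfite 7 of them were at 0% and 1 was at 9%. All 8 lay between 6133 and 6209 bases from the start, close enough for 1 read of 100 bases to cover them, and the peak had about 11 ChIP-bisulfite reads per C position. The next, near ENSCPOG00000022900 on scaffold 90 (bases 2232156 to 2243426), averaged 83.9% ± 20.7 in RRBS and 18.2% ± 27.8 in ChIP-bisulfite over 10 sites that spread from 2118 to 6667 bases. The most positive, near ENSCPOG00000003874 on scaffold 107 (bases 2855221 to 2891454), averaged 55.8% ± 32.0 in RRBS and 90.8% ± 17.5 in ChIP-bisulfite over 11 sites from 1207 to 9263 bases. In it 10 of 11 sites were higher in ChIP-bisulfite. The next, near ENSCPOG00000002132 on scaffold 135 (bases 1864021 to 1870228), averaged 48.2% ± 33.9 and 81.1% ± 34.1 over 9 sites, and 1 of these went from 94% in RRBS to 0%. None of the 8 peaks held a site inside a Pol II PS5 peak, where 1.46% of all downstream sites lay. With so few sites, none is near that share.

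**Figure D5:**
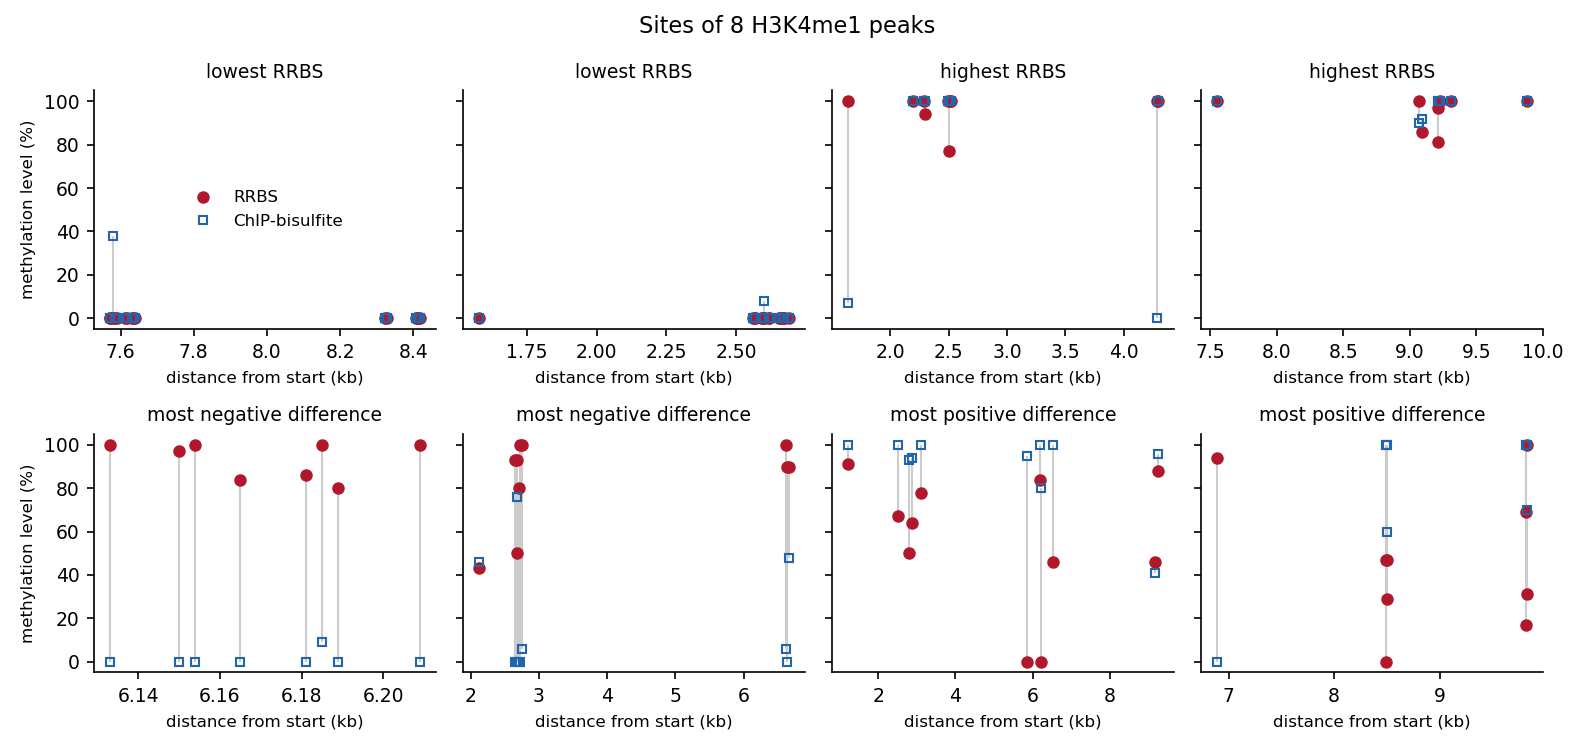
Methylation level in percent of every downstream site in 8 H3K4me1 peaks (RRBS, filled circles; ChIP-bisulfite, open squares; grey lines join the values of a site), by distance from the start site in kb. In the first of the most negative peaks 7 of 8 ChIP-bisulfite values lie at 0% under RRBS values of 80% to 100%.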

How the data were processed

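The members, the site sets and the gene lists were chosen with earlier results of these data known. The authors deposited methylation levels per CG site as whole percent, and RRBS reads per C position as counts of at least 10. They also deposited a score per Pol II PS5 and H3K4me1 peak and per transcript, all animals pooled per the file headers and names. The authors' deposited averages table gives ChIP-bisulfite reads per peak as counts and RRBS reads as estimated counts, since some lines are not whole. For RRBS, BSMAP 2.74 and methylKit stand in the submitters' processing notes, for ChIP-bisulfite Bismark 0.12.5 and methylKit, and for ChIP-seq MACS2, HOMER 4.6, Bowtie2 2.2.3 and SAMtools 1.1, with no roles. A genome build is not given in the sources used here.

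The 241970 lines were reduced to 167387 sites by nearest start, with the highest score among a site's transcripts. Sites were placed in peaks by position, ends included. In the averages table, ChIP-bisulfite columns stood on shifted lines: 18.5% of 98182 repeated peaks had identical entries as deposited, and 99.0% after 125710 of 198160 lines were moved by a fitted displacement of at most 6 lines. Only the depth proxy and the peak average use these columns.

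Differences are of site means, with standard errors clustered by scaffold and 95% normal intervals, and no p-values (Python 3.11.15, numpy 2.4.6, pandas 2.3.3). They were tested on simulated data in which groups were drawn at random over single sites. Sites inside Pol II PS5 peaks are clustered in 231 H3K4me1 peaks. Sets by score, start class, distance, C-position density and extent of the peak also follow peaks or transcripts. The simulation therefore does not check the intervals of these comparisons. Stratified differences weight strata by the number of sites in the first set named, such as the sites inside Pol II PS5 peaks. Site sets compared share animals and reads. Named peaks are, among peaks with at least 8 members, the 2 lowest and 2 highest in RRBS and the 2 most negative and 2 most positive in difference. Named genes were to be extremes of the same kind and members of 11 gene lists, but none of the 10116 genes could be paired with a symbol, so the lists gave no result and few identifiers are printed. The 3 digestion controls were not analysed here.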

Additional observations from a re-analysis of the deposited data

How the results depend on the processing

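No paired analysis was possible because the deposited columns pool the animals and carry no replicate numbers, and for the same reason no replicate was left out. Of 319 values under other settings, 255 kept their direction and whether their interval included 0 or, for a level or share, stayed within its interval, and 11 changed sign. The comparison of distance bins has no value when the downstream sites begin beyond 2000 bases.

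Counting a site through any listed transcript, which made 42123 downstream sites, gave mean levels of 52.8% in RRBS and 45.0% in ChIP-bisulfite and a difference of -7.77 points. All downstream sites by nearest start were kept, and the added sites lay within 1000 bases of their nearest start or upstream of it. The last minus the first distance bin was then 3.12 points in RRBS and -0.639 points in ChIP-bisulfite, with minus without a Pol II score -0.335 points in RRBS and 0.806 points in ChIP-bisulfite, and peak reaching the start minus not -6.87 and -4.55 points. Shares were 9.37% listed lower, 24.1% low in both assays, 22.2% high in both and 7.68% on opposite sides, and the whole-peak ChIP-bisulfite average was 47.2%. The cause was not tested.

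With 1 mean per H3K4me1 peak, so that peaks with many sites count once, the levels were 62.6% and 54.0%. Shares were 11.5% listed lower, 14.3% low in both, 29.5% high in both and 9.62% on opposite sides. The last minus the first bin was -0.0782 points in ChIP-bisulfite, the RRBS difference by reaching the start was -1.32 points, and the assay difference inside minus outside Pol II PS5 peaks was 4.01 points with an interval that includes 0. With at least 20 RRBS reads the levels were 59.1% and 50.2%, their difference -8.91 points, and the shares 2.18% listed higher, 16.9% low in both, 26.0% high in both and 6.80% on opposite sides. Inside minus outside Pol II PS5 peaks was then -10.7 points in ChIP-bisulfite (-23.8 to 2.41), the last minus the first bin was -0.824 points in ChIP-bisulfite, and the assay difference by reaching the start was 0.928 points. Beyond 2000 bases, the RRBS level was 58.1%, the assay difference -9.29 points, and the shares 11.0% listed lower, 18.0% low in both and 8.86% on opposite sides. The assay difference by score was 0.633 points, that by reaching the start 0.679 points, and the whole-peak average 50.1%. The cause was not tested.

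By construction, calling sites by a gap of 40 points or more instead of the list gave 20.6% lower and 8.92% higher (20.4% and 8.53% of all sites), and at least 10 points gave 36.7% and 25.8%. Limits of 10 and 90% gave 15.9% low in both, 18.3% high in both and 4.93% on opposite sides. The RRBS difference by reaching the start was -1.74 points without scaffold 13, which holds 1127 of the sites, and -1.68 points with both strands of a CG merged, where in ChIP-bisulfite it was -0.0353 and -0.0722 points. On the high H3K4me1 score scale it was 0.170 points in RRBS and 1.80 points in ChIP-bisulfite, the last minus the first bin was -0.311 points in ChIP-bisulfite, and the whole-peak average was 46.4%. With Pol II PS5 peaks above their median score the assay difference inside minus outside was 4.73 points with an interval that includes 0. Within RRBS classes the assay difference turned to 1.23 points against upstream sites and 2.84 points against start sites, but such classes do not ensure an equal underlying level. Within quintiles of C-position density, added after seeing the data, the ChIP-bisulfite difference from sites at 10000 to 100000 bases was -0.396 points, and the score difference of low starts minus that of the others was 3.20 points in RRBS and 3.08 points in ChIP-bisulfite. Also added after seeing the data, the downstream minus the upstream Pol II PS5 difference in ChIP-bisulfite was 5.54 points without scaffold 13 and 5.49 points without the peak with the most downstream sites. Depth limits single sites: a level on 17 reads moves in steps of several points, and the ChIP-bisulfite depth of a site is unknown.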
